A study of Mus musculus with 20 samples.

Results

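The comparison described here is the difference between Hepa1-6 cells kept with transforming growth factor β1 (TGFβ1) for 10 h and cells kept without it for the same time. It rests on 4 of the series' 20 microarrays, chosen by their titles: 2 from cultures treated with 1 ng/ml TGFβ1 for 10 h and 2 from untreated cultures of 10 h. The series also holds treated and untreated pairs at 0, 1, 3 and 6 h, with 2 arrays in each of its 10 groups. Hepa1-6 is an epithelial line from a liver tumour of a C57L mouse. It is 1 line, so the arrays of a group are repeat cultures, described by the submitters as biological duplicates, and not different animals. All cultures, treated and untreated, were seeded 24 h before the start and had spent 4 h without growth factors when the cytokine was added. Expression values are RMA levels on the log2 scale, in which a difference of 1 is a doubling, and each gene was read from the probe set with the highest mean over all 20 arrays. This gave 18193 genes.

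TGFβ1 binds the receptor Tgfbr2, which recruits and activates the receptor Tgfbr1. The receptor pair phosphorylates Smad2 and Smad3, which join Smad4 and enter the nucleus to switch genes on or off, among them inhibitors of the pathway itself such as Smad7 and Skil. In liver epithelial cells the cytokine is known for growth arrest, cell death, matrix production and the loss of epithelial form called epithelial to mesenchymal transition (EMT).

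The cells carried part of a hepatocyte programme together with biliary markers. Over the 4 arrays, albumin (Alb) lay between 11.91 and 12.46 and alpha-fetoprotein (Afp), the fetal counterpart of albumin, between 12.41 and 12.99. The median level over all genes was 6.31, and the brightness of a probe set depends on its probes as well as on the RNA. The hepatocyte secretory genes Ttr, Apob, Ahsg and Fga were below that median on all 4 arrays, with highest values of 5.69, 5.42, 4.67 and 2.93. Averaged over the 20 arrays, 7 of 12 hepatocyte markers and 4 of 5 biliary (cholangiocyte) markers lay above it. All 8 endothelial and all 5 lymphocyte markers lay below it, as did 6 of 8 macrophage and 8 of 11 stellate cell or fibroblast markers, while the matrix gene Dcn reached 13.46. Of the 12 hepatocyte markers measured, 4 fell at 10 h and 0 rose, against 4.06% and 5.07% of all genes. Among the falls, the call of Foxa2 rested on all 4 arrays. The mean level of the 12 was 6.997 and 6.988 on the treated arrays, against 7.269 and 7.231 on the untreated arrays. The biliary list had 2 of 5 members higher and 0 lower. The stellate list had 1 member higher and 1 lower, and the endothelial, macrophage and lymphocyte lists had 0 of either. In bulk RNA, fewer cells of a type and less RNA per cell cannot be told apart.

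At 10 h, 1662 genes differed between treated and untreated cultures (limma, Benjamini-Hochberg adjusted p under 0.05 over all genes), which was 9.14% of those tested. Of these, 923 were higher (5.07%) and 739 lower (4.06%) with TGFβ1. The median change was 1.26-fold for the genes that rose and 1.25-fold for those that fell. A change of at least 2-fold was reached by 37 higher genes (0.203%) and 25 lower genes (0.137%). In all 923 higher genes both treated arrays lay above both untreated ones, an arrangement found in 25.4% of all genes, and in all 739 lower genes both lay below, as in 25% of all genes. The test used these same arrays, so their arrangement is not separate support for the calls. The counts of genes that differed depended on single arrays. Without treated replicate 1, 833 genes differed (463 higher, 370 lower), without treated replicate 2, 1112 (596 higher, 516 lower), without untreated replicate 1, 916 (472 higher, 444 lower), and without untreated replicate 2, 949 (561 higher, 388 lower).

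The genes that rose most were led by Fam210b, which encodes a mitochondrial membrane protein studied in red cell development. Its level was 10.51 and 10.34 in treated cultures, against 7.63 and 7.68 in untreated cultures, a 6.84-fold rise (log2 difference 2.77 ± 0.07 SE, adjusted p = 5.25e-16). The paralogs Ctla2a and Ctla2b, which encode proteins like the propeptide of cathepsins, both rose. Ctla2a stood at 8.19 and 8.27 in treated cultures, against 5.79 and 6.05 in untreated cultures (4.96-fold), and Ctla2b at 7.20 and 7.40, against 5.28 and 5.05 (4.40-fold). Their transcripts are similar, so the probes of one may also have read the other. The promoter stretches of the pair, the 250 bases before the first start site, are shown because these neighbours on chromosome 13 moved together. They come from RefSeq (GRCm38.p6) at chr13:60936626-60936875 and chr13:60897448-60897697, both on the minus strand. Capitals mark the letters CAGAC, a core of SMAD binding sites, or its reverse complement GTCTG, and TGANTCA, the AP-1 motif.
Ctla2a: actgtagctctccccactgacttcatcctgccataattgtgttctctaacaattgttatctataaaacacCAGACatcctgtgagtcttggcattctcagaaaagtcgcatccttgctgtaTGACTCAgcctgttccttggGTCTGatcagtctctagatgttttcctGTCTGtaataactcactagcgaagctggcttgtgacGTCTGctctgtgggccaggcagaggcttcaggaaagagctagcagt
Ctla2b: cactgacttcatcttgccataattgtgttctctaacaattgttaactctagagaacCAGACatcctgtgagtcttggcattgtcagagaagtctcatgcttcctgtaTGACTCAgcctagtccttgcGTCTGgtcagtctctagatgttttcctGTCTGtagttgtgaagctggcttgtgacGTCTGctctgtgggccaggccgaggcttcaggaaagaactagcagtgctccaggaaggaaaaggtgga
Each stretch held CAGAC at 4 places and TGANTCA at 1, and an alignment of the pair had identical bases in 208 of 272 columns (76.5%).

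Serpinb7, a member of the serpin family of protease inhibitors, was at 11.29 and 11.23 in treated cultures and at 9.11 and 9.17 in untreated cultures (4.34-fold, adjusted p = 4.68e-12). Its promoter stretch (chr1:107422439-107422688, plus strand, GRCm38.p6) is shown because CAGAC, read on the opposite strand, and TGANTCA overlap there, with first bases at -48 and -45 from the start.
Serpinb7: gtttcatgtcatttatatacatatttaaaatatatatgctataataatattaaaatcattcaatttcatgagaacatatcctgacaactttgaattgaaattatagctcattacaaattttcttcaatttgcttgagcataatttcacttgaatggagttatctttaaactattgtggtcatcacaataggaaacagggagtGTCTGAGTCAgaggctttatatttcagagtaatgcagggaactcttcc
Such letters are common. Among 32851 RefSeq promoter stretches of this length, 42.2% held CAGAC, 6.75% TGANTCA, 12.6% GGAATG (the TEAD motif) and 6.02% CACGTG (an E-box), on either strand. The stretches of a whole chromosome were left out of this search, so a gene without an entry here may have a promoter in RefSeq. Of the 15 largest rises, 12 had an entry. At the first start site of each, 3 held CAGAC, 4 TGANTCA, 3 GGAATG and 0 CACGTG. Of the 15 largest falls, 8 had an entry, with 2, 2, 1 and 1 holding these motifs in the same order. Later start sites of Mcf2l, Papss2 and Tenm4 held CAGAC as well, and a later one of Papss2 also held GGAATG. The 32851 stretches take in every start site, so the counts and these shares are not like for like.

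Ccn2, a matricellular protein and a standard TGFβ target, was also among the largest rises, at 11.78 and 11.74 in treated cultures, against 9.60 and 9.72 in untreated cultures (4.28-fold). Tnnt2, the troponin T of heart muscle, was at 8.77 and 8.59, against 6.23 and 6.69 (4.66-fold). Dram1, a lysosomal regulator of autophagy, was at 10.47 and 10.40, against 8.05 and 8.40 (4.63-fold). In each of these genes the groups stood well apart, and the untreated arrays differed from each other by more than the treated ones did. Nrep, first described in regenerating nerve, rose 4.55-fold and Tenm4, a transmembrane protein of cell contacts, 3.65-fold. Papss2, which makes the sulfate donor for matrix sugars, rose 3.36-fold. P2ry14, a receptor for UDP-sugars, rose 3.21-fold, with all its 10 h arrays below the median gene level. Skil (3.31-fold), Lcn2 (3.21-fold), Mcf2l (3.00-fold) and Lmcd1 (2.97-fold) completed the 15 largest rises. Lcn2, the iron-binding lipocalin of the acute phase, had the least even arrays, with 5.11 and 4.70 in treated cultures, against 2.74 and 3.70 in untreated cultures, and all 4 were below the median gene level.

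**Figure D1:**
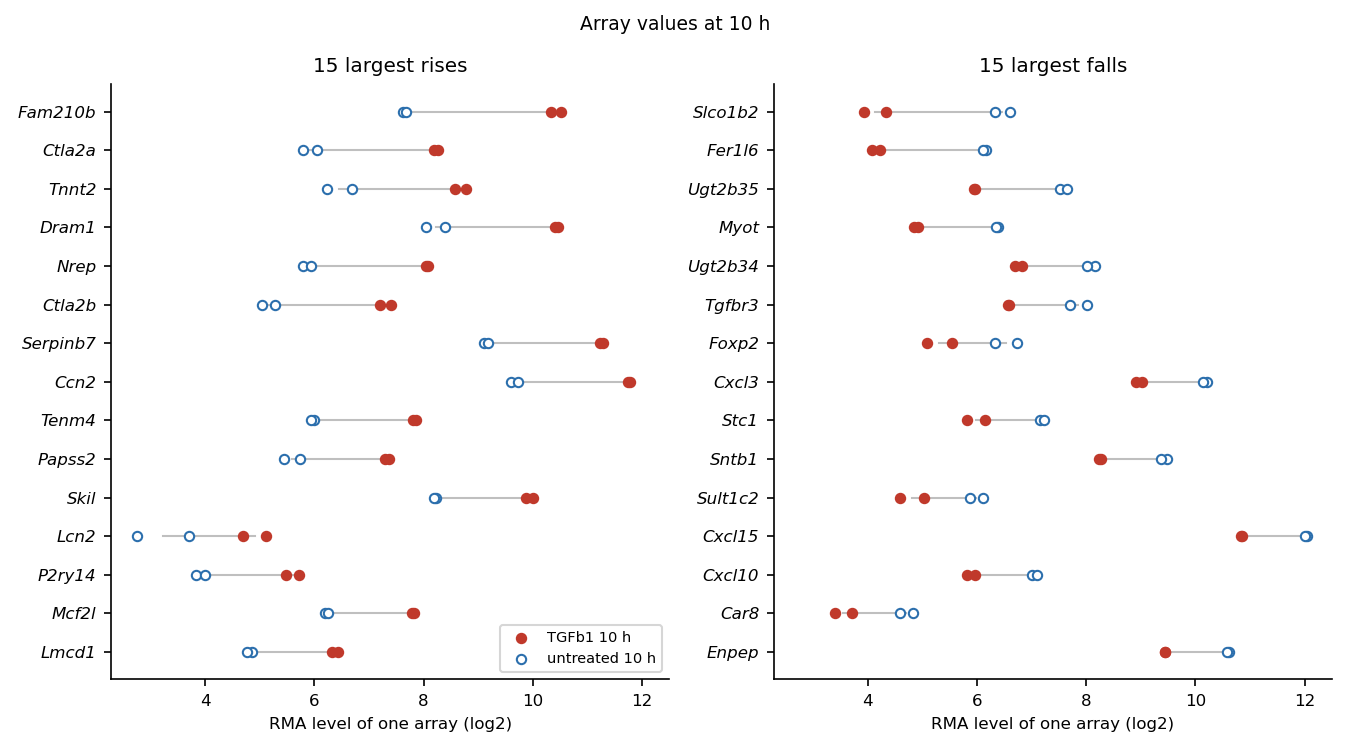
Each point is the RMA level of 1 array at 10 h (log2, x axis) for the 15 genes with the largest rises (left) and the 15 with the largest falls (right), filled for TGFβ1 and open for untreated cultures, with a grey line between the group means. The filled and open pairs do not overlap for any of the 30 genes, because this was part of how they were chosen, and Lcn2 has the widest spread between its untreated arrays, 2.74 and 3.70.

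The falls were led by Slco1b2, the hepatocyte importer of bile acids and drugs, at 4.34 and 3.94 in treated cultures, against 6.60 and 6.33 in untreated cultures, a 5.02-fold fall (log2 difference -2.33 ± 0.23 SE, adjusted p = 6.5e-07). The treated values lay below the median gene level. Its 4 other probe sets had smaller falls, with log2 differences from -1.50 to -0.17, and 1 of them passed the test. The glucuronosyltransferases Ugt2b35 and Ugt2b34, which attach glucuronic acid to steroids and drugs, fell 3.09-fold and 2.53-fold. Ugt2b35 was at 5.97 and 5.95 in treated cultures, against 7.52 and 7.66 in untreated cultures. These are paralogs whose probes may share signal. Fer1l6, a ferlin family member, fell 3.95-fold to 4.09 and 4.23 in treated cultures, against 6.16 and 6.12 in untreated cultures. Myot, a protein of the muscle Z-disc, fell 2.80-fold, the transcription factor Foxp2 2.33-fold, the secreted hormone Stc1 2.30-fold and the membrane scaffold Sntb1 2.27-fold. The co-receptor Tgfbr3 (2.42-fold) and the chemokines Cxcl3 (2.30-fold), Cxcl15 (2.25-fold) and Cxcl10 (2.24-fold) also fell. The sulfotransferase Sult1c2 (2.26-fold), the peptidase Enpep (2.23-fold) and Car8, a relative of the carbonic anhydrases (2.23-fold), completed the list. All 10 h arrays of Fer1l6, Sult1c2 and Car8 lay below the median gene level. The fall of Car8 lost its call without treated replicate 2 (adjusted p = 0.083) and without untreated replicate 1 (adjusted p = 0.0774).

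Cxcl10, a chemokine that draws T cells, was at 5.97 and 5.83 in treated cultures, against 7.01 and 7.11 in untreated cultures (adjusted p = 2.16e-08). Its promoter stretch (chr5:92348890-92349139, minus strand, GRCm38.p6) holds TGANTCA, as those of the rising genes above do, with its first base at -74 from the start, and no CAGAC.
Cxcl10: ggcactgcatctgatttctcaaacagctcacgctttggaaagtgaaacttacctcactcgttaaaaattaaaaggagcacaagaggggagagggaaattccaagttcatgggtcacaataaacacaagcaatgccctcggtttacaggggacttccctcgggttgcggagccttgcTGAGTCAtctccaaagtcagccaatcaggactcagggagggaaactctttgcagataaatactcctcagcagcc

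Of 28 measured ligands, receptors and SMADs of the TGFβ family, 8 rose and 1 fell, against 5.07% and 4.06% of all genes. The rises were small, at most 0.59 on the log2 scale, and the list's median difference was 0.11, against -0.003 for all genes. The only fall was the largest change of the list. Tgfbr3, the co-receptor that presents ligand, fell to 6.59 and 6.58 in treated cultures, against 7.71 and 8.01 in untreated cultures (adjusted p = 2.21e-08). The signal receptors Tgfbr1 and Tgfbr2 were higher by 0.25 and 0.23, and Smad2 by 0.22, but each call was lost under several alternatives. Without treated replicate 1 the adjusted p was 0.311 for Tgfbr1 and 0.189 for Tgfbr2. Tgfbr1 was also lost without untreated replicate 2 (adjusted p = 0.186) and Tgfbr2 without untreated replicate 1 (adjusted p = 0.0855). Smad2 was lost without any 1 of the 4 arrays (adjusted p = 0.0761 to 0.101). With the mean of a gene's probe sets in place of the brightest one, Tgfbr1 (adjusted p = 0.202) and Tgfbr2 (0.03 higher, adjusted p = 0.913) did not pass either. Smad3 (0.16, adjusted p = 0.129), Smad4 (0.14, adjusted p = 0.0991) and Tgfb1 (-0.03, adjusted p = 0.962) did not pass the test, though Smad4 did with the mean of its probe sets (adjusted p = 0.021). The bone morphogenetic protein (BMP) side rose in Bmp4, a ligand, by 0.59, in Bmpr2, a receptor, by 0.47 and in Smad5, its signal carrier, by 0.30. The count of 8 was 3 without treated replicate 1, 5 without treated replicate 2, 4 without untreated replicate 1 and 5 without untreated replicate 2.

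The SMAD target list had 14 of 30 members higher and 2 lower, against 5.07% and 4.06% of all genes. Its median log2 difference was 0.23. Skil, a brake on SMAD transcription, was at 10.00 and 9.88 in treated cultures, against 8.23 and 8.20 in untreated cultures (log2 difference 1.73 ± 0.07 SE, adjusted p = 1.17e-12). Smad7, which targets the receptors for destruction, was at 8.71 and 8.80, against 8.23 and 8.44 (0.42 ± 0.07 SE, adjusted p = 0.000377). The related brake Ski was 0.43 higher, but lost its call when any 1 of the 4 arrays was left out (adjusted p = 0.0548 to 0.332). Pdgfb, a growth factor for stromal cells, rose by 0.92 and the transcriptional repressor Bhlhe40 by 0.61. Cdkn2b, the CDK inhibitor classically induced by TGFβ, was 0.18 higher and did not pass (adjusted p = 0.0672), although it did in 3 of 13 alternatives (adjusted p = 0.0273 to 0.0417). Of the list's 2 falls, Bambi, a decoy receptor, fell by 0.51 and Tgfbi, a secreted matrix protein named here after its values were seen, fell by 0.46. Among 16 BMP targets, 1 rose and 2 fell, Bambi among them, so the number of rises was close to the share over all genes. Fst, which traps activins, rose by 0.32. Id3, an inhibitor of helix-loop-helix factors, had a log2 difference of -0.33, a call lost without treated replicate 1 (adjusted p = 0.0746) and without untreated replicate 1 (adjusted p = 0.0556).

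**Figure D2:**
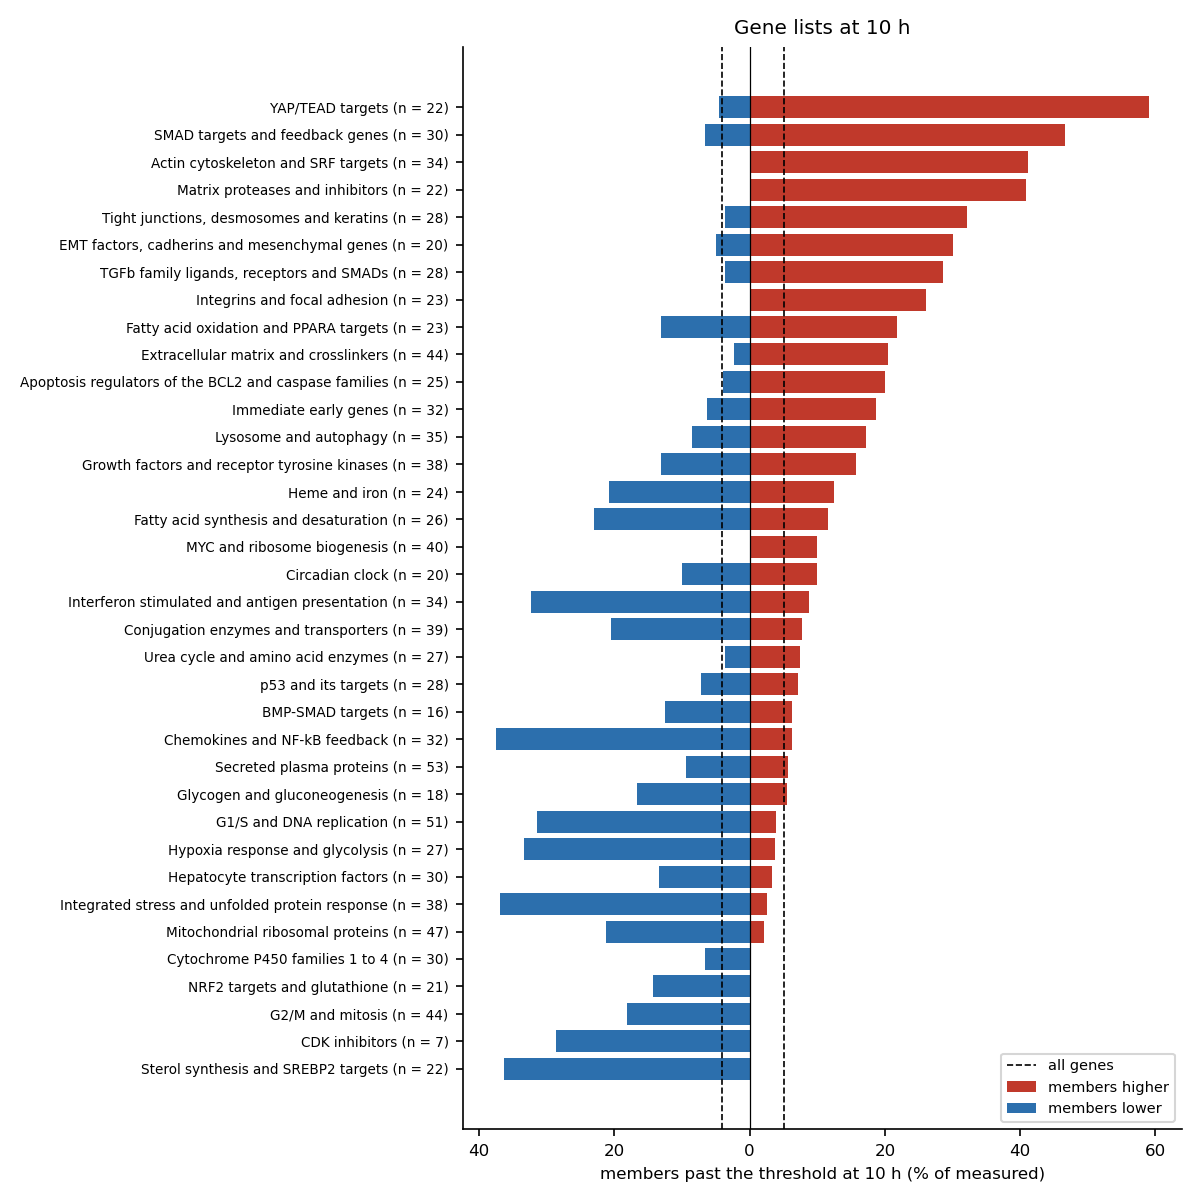
Bars give the share of each list's measured members (n in brackets) that were higher (right of 0) or lower (left of 0) with TGFβ1 at 10 h, and dashed lines give the same shares over all 18193 genes, 5.07% higher and 4.06% lower. The lines are not matched for brightness: the 9096 genes above the median level, fitted alone, gave 1033 higher and 815 lower. YAP/TEAD targets, SMAD targets and actin genes have the largest shares of members on the higher side, with 13 of 22, 14 of 30 and 14 of 34, and sterol synthesis genes lie only on the lower side, with 8 of 22. List members were chosen with earlier results of these data known, so the shares partly reflect that choice.

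Targets of YAP and TEAD, the factors that answer to cell shape and tension, had 13 of 22 members higher and 1 lower. Of all genes, 5.07% were higher and 4.06% lower. The list's median log2 difference was 0.36. Ccn1, a matricellular relative of Ccn2, was at 8.97 and 8.92 in treated cultures, against 8.13 and 8.30 in untreated cultures (0.73 ± 0.09 SE, adjusted p = 1.49e-05). The muscle and stress gene Ankrd1 rose by 0.64 and the kinase Nuak2 by 0.50. Genes of the actin cytoskeleton and targets of serum response factor (SRF) had 14 of 34 members higher and 0 lower, with a median of 0.16. Pdlim7, a scaffold on actin bundles, was at 8.46 and 8.38 in treated cultures, against 7.40 and 7.34 in untreated cultures (2.07-fold). Cald1, which binds actin and tropomyosin, rose by 0.61. Integrins and their adhesion partners had 6 of 23 members higher and 0 lower. Itgb5 rose by 0.70, Fblim1, an adapter for filamin, by 0.59, and Itgav, the integrin chain that can activate latent TGFβ, by 0.27, a call lost with the mean of its probe sets (0.13, adjusted p = 0.427).

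Of 44 matrix genes measured, 9 were higher and 1 lower, against 5.07% and 4.06% of all genes, with a median log2 difference of 0.01. The laminin chain Lamb3 was at 8.72 and 8.65 in treated cultures, against 7.23 and 7.40 in untreated cultures (2.59-fold, adjusted p = 3.12e-08). A second laminin chain, Lamb1, named after its values were seen, was 2.12-fold higher. Fibronectin (Fn1) rose by 0.63, the basement membrane collagen Col4a1 by 0.61 and the TGFβ activator Thbs1 by 0.54. The fibrillar collagen Col1a1 was 0.68 higher from dim values, 5.55 and 4.90 in treated cultures, against 4.61 and 4.48 in untreated cultures. It is among the stellate markers, and its call was lost without treated replicate 1 (adjusted p = 0.418), without untreated replicate 1 (adjusted p = 0.0739) and without untreated replicate 2 (adjusted p = 0.156). Matrix proteases and their inhibitors had 9 of 22 members higher and 0 lower, at a median of 0.13. Htra1, a secreted serine protease, was at 7.70 and 7.68 in treated cultures, against 6.09 and 6.40 in untreated cultures (2.72-fold). Plat, the tissue plasminogen activator, rose by 0.72, and Mmp14, a membrane-bound collagenase, by 0.34. Mmp11, which was picked out after its values were seen, was 2.17-fold higher, with all its 10 h arrays below the median gene level.

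In the EMT list 6 of 20 members were higher and 1 was lower, against 5.07% and 4.06% of all genes. N-cadherin (Cdh2) was at 10.21 and 10.16 in treated cultures, against 9.59 and 9.64 in untreated cultures (0.57 ± 0.07 SE, adjusted p = 2.17e-05), and vimentin (Vim) rose by 0.27. Epcam, an adhesion molecule of epithelia that stands in this list and among the biliary markers, was 0.37 higher, a call lost with the mean of its probe sets (0.16, adjusted p = 0.209). The fall was that of S100a4, a fibroblast marker named after its values were seen, with a log2 difference of -0.32. That call was lost without treated replicate 2 (adjusted p = 0.122) and without untreated replicate 2 (adjusted p = 0.165). E-cadherin (Cdh1) was dim, at 2.82 and 2.69 in treated cultures, against 2.62 and 2.63 in untreated cultures, and did not pass the test (adjusted p = 0.788). The EMT factors Snai1 (adjusted p = 0.748) and Snai2 (adjusted p = 0.708) did not pass either. Of 28 genes of tight junctions, desmosomes and keratins, 9 rose and 1 fell, and this count was 4 without treated replicate 1 and 5 without untreated replicate 1. Cldn4, a tight junction protein, was at 10.99 and 11.09 in treated cultures, against 10.12 and 10.03 in untreated cultures (1.95-fold, adjusted p = 3.98e-10). The keratin Krt7, a biliary marker, was at 10.71 and 10.74, against 9.86 and 9.73 (1.91-fold). The junction protein Jup rose by 0.57 and Cldn3 by 0.46.

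Genes of sterol synthesis, the targets of SREBP2, had a median log2 difference of -0.14. They were lower in 8 of 22 cases and higher in 0, against 4.06% and 5.07% of all genes. Without 1 array the count was 4 (treated replicate 1), 5 (treated replicate 2), 5 (untreated replicate 1) and 4 (untreated replicate 2). Pmvk, which makes mevalonate diphosphate, was at 9.49 and 9.45 in treated cultures, against 10.10 and 10.27 in untreated cultures (-0.72 ± 0.07 SE, adjusted p = 6.88e-07). Tm7sf2 and Ebp, later enzymes of the route, fell by 0.53 and 0.29. In fatty acid synthesis 3 of 26 members rose and 6 fell. Acss2, which turns acetate into acetyl-CoA, was at 7.60 and 7.37 in treated cultures, against 8.36 and 8.47 in untreated cultures (1.90-fold lower). The master regulator Srebf1 fell by 0.26. The count of 6 was 3 without treated replicate 2 and 2 without untreated replicate 2. In fatty acid oxidation 5 of 23 rose and 3 fell, with 3 higher without untreated replicate 2. Vnn1, a target of the fat-burning receptor PPARA, fell by 0.93, while Plin2, the coat of lipid droplets, rose by 0.39.

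Hypoxia and glycolysis genes were lower in 9 of 27 cases and higher in 1, a count of 5 without treated replicate 1 and 5 without untreated replicate 1. The aldolase Aldoc was at 9.65 and 9.76 in treated cultures, against 10.77 and 10.80 in untreated cultures (2.11-fold lower, adjusted p = 7.84e-09). Ankrd37, a target of hypoxia-inducible factor, fell by 0.80, Bnip3, a mitophagy receptor, by 0.47, and Pdk1, which holds pyruvate back from the mitochondria, by 0.42. These falls stood against rising controls: between 0 and 10 h, Aldoc changed by 1.52 in treated and 2.63 in untreated cultures, Bnip3 by 2.28 and 2.67, and Pmvk by 0.78 and 1.47. Both changes over time use the same 10 h arrays as the comparison itself. In glycogen handling and gluconeogenesis, 3 of 18 genes fell and 1 rose. Ppp1r3c, which directs glycogen synthesis, was lower by a log2 difference of -0.82 (adjusted p = 5.87e-06). The other calls of this list were each lost under some alternative. Over all genes, 4.06% fell and 5.07% rose.

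Of 53 plasma proteins, 3 rose and 5 fell, against 5.07% and 4.06% of all genes, so the number of rises was close to the share over all genes. The fibrinogen chain Fgb was at 7.67 and 7.84 in treated cultures, against 8.87 and 8.82 in untreated cultures (2.13-fold lower, adjusted p = 7.44e-08). Albumin was at 11.91 and 11.92, against 12.46 and 12.35 (-0.49 ± 0.06 SE), and alpha-fetoprotein at 12.41 and 12.46, against 12.94 and 12.99 (-0.53 ± 0.05 SE). Between 0 and 10 h albumin changed by -0.06 in treated and by 0.51 in untreated cultures, and Slco1b2 by -0.58 and 1.73. In the opposite direction F11, coagulation factor XI, was at 6.88 and 6.84 in treated cultures, against 5.32 and 5.33 in untreated cultures (2.91-fold higher). Of 27 enzymes of the urea cycle and amino acid breakdown, 2 rose and 1 fell, close to the 5.07% and 4.06% of all genes. The fall lost its call under some alternative. Cps1, the entry enzyme of the urea cycle, was at 5.26 and 5.25, against 3.86 and 3.54 (2.94-fold), all below the median gene level. Arg2, the mitochondrial arginase, rose by 0.74.

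Conjugation enzymes and transporters had 8 of 39 members lower and 3 higher, with a median log2 difference of -0.16, and 5 were lower without treated replicate 1. Besides the Ugt2b pair and Slco1b2, the sulfotransferase Sult1c2 fell by 1.17, while Slco2a1, a prostaglandin importer, rose by 0.40. Cytochrome P450 genes changed in 2 of 30 cases, both lower, against 4.06% of all genes lower. Cyp3a13 was lower by a log2 difference of -0.61, while the other fall lost its call under some alternatives. Only 5 of the 30 were brighter than the median gene. Of 21 targets of NRF2, the factor of the oxidative stress response, 3 fell and 0 rose, led by the quinone reductase Nqo1 at -0.56. The other falls of this list each lost their call under some alternatives. Among 30 hepatocyte transcription factors, 4 fell and 1 rose, against 4.06% and 5.07% of all genes. Dbp, a clock-controlled factor, fell by 0.87 and Foxa3 by 0.35. Foxa2, also among the hepatocyte markers, had a log2 difference of -0.23, a call lost without any 1 of the 4 arrays (adjusted p = 0.0907 to 0.0961). Hnf4a, the central factor of hepatocyte identity, was at 6.32 and 6.47 in treated cultures, against 6.61 and 6.96 in untreated cultures, and did not pass (adjusted p = 0.0688). It passed in 3 of 13 alternatives (adjusted p = 0.0293 to 0.0417), one of them without untreated replicate 1 (-0.56).

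Most genes of DNA replication and mitosis did not pass the test. In the G1/S list 16 of 51 members fell and 2 rose, against 4.06% and 5.07% of all genes. The list's median log2 difference was -0.15. Of the 51, 49 lay above the median gene level, as did all 44 of the G2/M list, and these shares are not matched for brightness. The count of 16 was 6 without treated replicate 1, 9 without treated replicate 2, 8 without untreated replicate 1 and 5 without untreated replicate 2. Tk1, thymidine kinase, was at 8.27 and 8.29 in treated cultures, against 8.75 and 8.85 in untreated cultures (-0.52 ± 0.07 SE, adjusted p = 6e-05). Rrm2, a subunit of ribonucleotide reductase, fell by 0.34 and the primase Prim1 by 0.30. In the G2/M list 8 of 44 members fell and 0 rose, a count of 2 without treated replicate 1, 3 without untreated replicate 1 and 3 without untreated replicate 2. The spindle checkpoint gene Mad2l1 fell by 0.29 and the mitotic kinase Aurkb by 0.34. Of 7 CDK inhibitors 2 fell and 0 rose. Cdkn2c and Cdkn2d, which block CDK4 and CDK6, fell by 0.52 and 0.68. Cdkn1a, the p21 inhibitor, was at 11.72 and 11.77 in treated cultures, against 11.78 and 11.75 in untreated cultures (adjusted p = 0.929), groups that overlapped.

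Myc, the growth regulator that TGFβ is known to repress in many epithelial cells, was at 10.55 and 10.49 in treated cultures, against 9.93 and 9.99 in untreated cultures (0.56 ± 0.06 SE, adjusted p = 6.88e-07). Of 40 MYC and ribosome assembly genes, 4 rose and 0 fell, against 5.07% and 4.06% of all genes. These shares are not matched for brightness, and 39 of the 40 lay above the median gene level. The 9096 genes above that level, fitted alone, gave 1033 higher and 815 lower. The list's median log2 difference was 0.06. Mitochondrial ribosomal proteins, all 47 above the median gene level, had 10 members lower and 1 higher. That count was 2 without treated replicate 1, 4 without untreated replicate 1 and 2 without untreated replicate 2. In the list of apoptosis regulators 5 of 25 rose and 1 fell, with 3 higher without treated replicate 2. Bmf and Bcl2l11, which encode BH3-only proteins that start cell death, rose by 0.85 and 0.57. Bmf was at 9.62 and 9.59 in treated cultures, against 8.84 and 8.67 in untreated cultures. The death receptor Fas, which stands among the p53 targets and not in this list, fell by 0.66.

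In the list of the integrated stress and unfolded protein responses, 14 of 38 members fell and 1 rose, and the 14 became 5 without treated replicate 1, 8 without treated replicate 2, 5 without untreated replicate 1 and 8 without untreated replicate 2. Over all genes, 4.06% fell and 5.07% rose, shares not matched for brightness, and all 38 members lay above the median gene level. Sdf2l1, an endoplasmic reticulum chaperone component, fell by 0.50, Ddit3 (CHOP) by 0.41 and the amino acid importer Slc7a5 by 0.36. In the interferon and antigen presentation list 11 of 34 fell and 3 rose, and 6 were lower without treated replicate 1. The immunoproteasome subunit Psmb9 was at 7.97 and 7.99 in treated cultures, against 8.58 and 8.64 in untreated cultures (-0.63 ± 0.07 SE, adjusted p = 5.84e-06). Oas1a, an antiviral sensor, fell by 0.50, whereas its relative Oasl2, named after its values were seen, rose by 0.77. All 10 h arrays of Oasl2 lay below the median gene level.

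Chemokines and feedback genes of NF-kB were lower in 12 of 32 cases and higher in 2, against 4.06% and 5.07% of all genes. Their median log2 difference was -0.17. The count of 12 was 6 without treated replicate 1 and 6 without untreated replicate 2. Cxcl15, a chemokine of epithelia, was at 10.86 and 10.84 in treated cultures, against 12.04 and 12.01 in untreated cultures (2.25-fold lower, adjusted p = 1.17e-12). Cxcl3, which attracts neutrophils, was at 9.02 and 8.91, against 10.21 and 10.14 (2.30-fold lower). The related Cxcl5 and Cxcl2, both named after their values were seen, fell by 1.03 and 0.79. All 10 h arrays of Cxcl5 lay below the median gene level. Of 32 immediate early genes, 6 rose and 2 fell, with Jun, a part of AP-1, higher by 0.42, and its partner Fos at a log2 difference of -0.50. Those 6 were 2 without treated replicate 1, 3 without treated replicate 2, 2 without untreated replicate 1 and 2 without untreated replicate 2.

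Among 38 growth factors and receptor tyrosine kinases, 6 rose and 5 fell, and without treated replicate 1 the counts were 3 and 3, with 3 lower also without untreated replicate 2. Igfbp3, which binds insulin-like growth factors, was at 9.62 and 9.54 in treated cultures, against 8.25 and 8.30 in untreated cultures (2.47-fold, adjusted p = 6.62e-11). The ligand Pdgfc rose by 0.85, while the receptor Pdgfra, also a stellate marker and named after its values were seen, fell by 0.91. Tgfa, a ligand of the EGF receptor, fell by 0.60. In heme and iron genes, 3 of 24 rose and 5 fell, against 5.07% and 4.06% of all genes. The iron exporter Slc40a1 was higher by 0.59 and the biliverdin reductase Blvrb by 0.43. The 5 falls were 2 without treated replicate 1, 3 without treated replicate 2, 1 without untreated replicate 1 and 2 without untreated replicate 2.

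The 10 h response was set beside the earlier ones, which use other arrays but the same estimate of spread. At 6 h 2862 genes differed (15.7%), at 3 h 2780 (15.3%) and at 1 h 407 (2.24%). At 0 h 0 genes did by limma, with 740 at an unadjusted p under 0.05. Those higher and lower were 7.77% and 7.96% of all genes at 6 h, 6.73% and 8.55% at 3 h, and 1.91% and 0.324% at 1 h. The rises shared by 10 h and 6 h were 627, which is 67.9% of the 923 at 10 h and 44.3% of those at 6 h. The shared falls were 514, which is 69.6% of the 739 at 10 h and 35.5% of those at 6 h. Among the 2-fold changes, 37 of 37 rises and 24 of 25 falls were shared with 6 h. At 1 h the shared rises were 135 (14.6% of those at 10 h and 38.8% of those at 1 h) and the shared falls 9 (1.22% and 15.3%).

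The effect was smaller at 10 h than at 6 h for many strong genes. The difference between the effects at 10 h and 6 h was tested for each gene, and 444 genes passed (2.44%), 202 with a higher value at 10 h (1.11%) and 242 with a lower one (1.33%). Without 1 array of 10 h this count was 270 (treated replicate 2), 284 (untreated replicate 1), 294 (untreated replicate 2) and 358 (treated replicate 1). Of the 627 genes higher at both times, 121 passed with a smaller effect at 10 h and 1 with a larger one, and their median log2 differences were 0.38 at 10 h and 0.50 at 6 h. Of the 514 lower at both times, 34 passed with a smaller effect and 3 with a larger one, at medians of -0.34 and -0.40. Lmcd1, a LIM protein of muscle and liver, had a log2 difference of 1.57 at 10 h and 3.02 at 6 h (change -1.45, adjusted p = 0.0031), and Ldlrad4, an inhibitor of SMAD activation, 1.14 and 2.58 (change -1.44, adjusted p = 0.00054). All 10 h arrays of Ldlrad4 lay below the median gene level. Of the 30 SMAD targets, 13 had a lower effect at 10 h than at 6 h and 0 a higher one, counted with their sign. Tgfbi is among the 13 with a fall that was larger at 10 h (-0.46, against 0.01 at 6 h), so not all of the 13 effects shrank. Junb and Klf10, transcription factors named after their values were seen, stood at 0.48 and 0.37 at 10 h, against 1.41 and 0.83 at 6 h and 3.08 and 3.57 at 1 h, the call of Junb at 10 h being lost without any 1 of the 4 arrays (adjusted p = 0.0519 to 0.104).

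**Figure D3:**
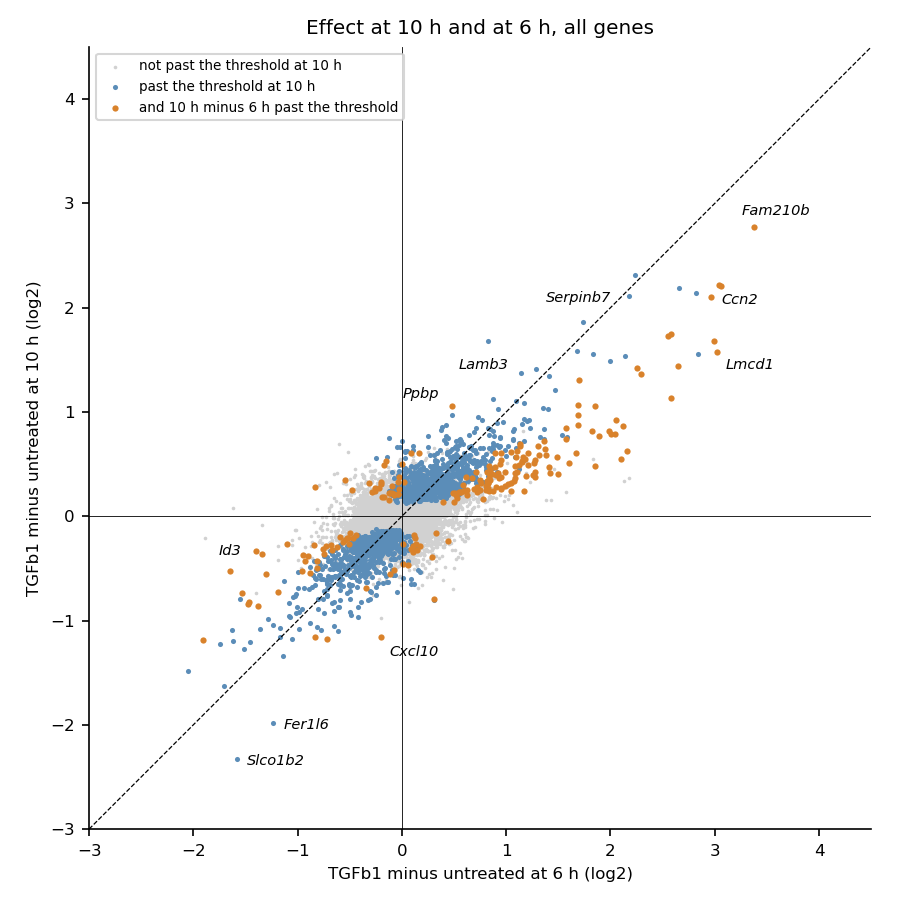
Each point is a gene, with its TGFβ1 minus untreated log2 difference at 6 h on the x axis and at 10 h on the y axis, grey where it did not pass at 10 h, blue where it did and orange where the 10 h minus 6 h difference passed as well. The dashed line marks equal effects, and orange genes to the right of it, such as Ccn2 with 2.10 at 10 h and 2.97 at 6 h, had smaller rises at 10 h.

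Some early effects were no longer called at 10 h. Cyp1a1, the dioxin-inducible P450, was at 11.64 and 11.70 in treated cultures, against 11.50 and 11.69 in untreated cultures, groups that overlapped (log2 difference 0.08, adjusted p = 0.786), while at 6 h the difference was -1.62. Angpt1, a vessel growth factor, had -0.21 at 10 h (adjusted p = 0.702) and -1.89 at 6 h, and the kinase Hunk -0.09 (adjusted p = 0.693) and -1.34. Chst8, a sulfotransferase, had 0.37 at 10 h (adjusted p = 0.278) and 2.17 at 6 h. Its treated arrays stood at 4.37 and 5.07, against 4.32 and 4.39 in untreated cultures, and without treated replicate 1 the 10 h difference was 0.72 and passed (adjusted p = 0.0257). All 4 changes of the effect between 6 and 10 h in Cyp1a1, Angpt1, Hunk and Chst8 passed the test, at 1.69, 1.67, 1.25 and -1.81. Tmem71, a membrane protein, kept a fall of -0.53 at 10 h, against -1.64 at 6 h. Pstpip1, an adapter on the cytoskeleton, was 0.55 higher at 10 h, against 2.10 at 6 h, but its 10 h call was lost without treated replicate 1 (adjusted p = 0.0828), treated replicate 2 (0.178) and untreated replicate 2 (0.282).

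A smaller set of effects was seen late. Of the genes called at 10 h, 202 higher and 171 lower ones were called at 1, 3 and 6 h in neither direction, but the change from 6 h passed in 10 and 8 of them, so most were not shown to be late. In 12 higher and 12 lower genes the 10 h effect lay further in its own direction than at 1, 3 and 6 h. All 3 differences passed the test. The set takes in effects that reversed, such as that on Cxcl10, with 1.76 at 3 h and -1.16 at 10 h. The difference from 3 h alone passed in 7.06% of all genes (4.11% with a higher value at 10 h, 2.96% with a lower one) and that from 1 h in 4.02% (1.62% and 2.4%). Cxcl15 had -1.17 at 10 h, -0.71 at 6 h and -0.39 at 3 h, and Enpep, a membrane peptidase that cleaves angiotensin, -1.16, -0.84 and -0.48. Col4a1 rose by 0.61 at 10 h, with 0.16 at 6 h. Ppbp, a platelet chemokine, was at 7.90 and 7.82 in treated cultures, against 6.86 and 6.75 in untreated cultures (2.08-fold), with a log2 difference of 0.48 at 6 h. Morc4 (0.61 at 10 h, 0.09 at 6 h), Notum, which inactivates Wnt proteins (-0.47 and 0.05), and Cp, the copper carrier ceruloplasmin (0.33 and -0.20), belonged to the same set, and these and Ppbp were named after their values were seen. The call of Cp at 10 h was lost without treated replicate 2 (adjusted p = 0.144) and without untreated replicate 1 (adjusted p = 0.0791).

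In 68 genes the effects at 3 h and 10 h were called in opposite directions. Cxcl10 had a log2 difference of 1.76 at 3 h, -0.20 at 6 h and -1.16 at 10 h. The ribosomal RNA modifier Dkc1 had -0.50 at 3 h and 0.25 at 10 h, though its 10 h call was lost without untreated replicate 1 (adjusted p = 0.0546). Other courses changed sign at other times. Id3 had 1.80 at 1 h, -0.74 at 3 h, -1.40 at 6 h and -0.33 at 10 h, and Myc -1.18 at 1 h, 0.03 at 3 h (adjusted p = 0.854) and 0.56 at 10 h. By contrast, the effects on Ctla2a (2.31 at 10 h, 2.23 at 6 h), Serpinb7 (2.12 and 2.18), Tenm4 (1.87 and 1.73) and Mcf2l (1.59 and 1.68) had no difference between the times that passed the test.

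**Figure D4:**
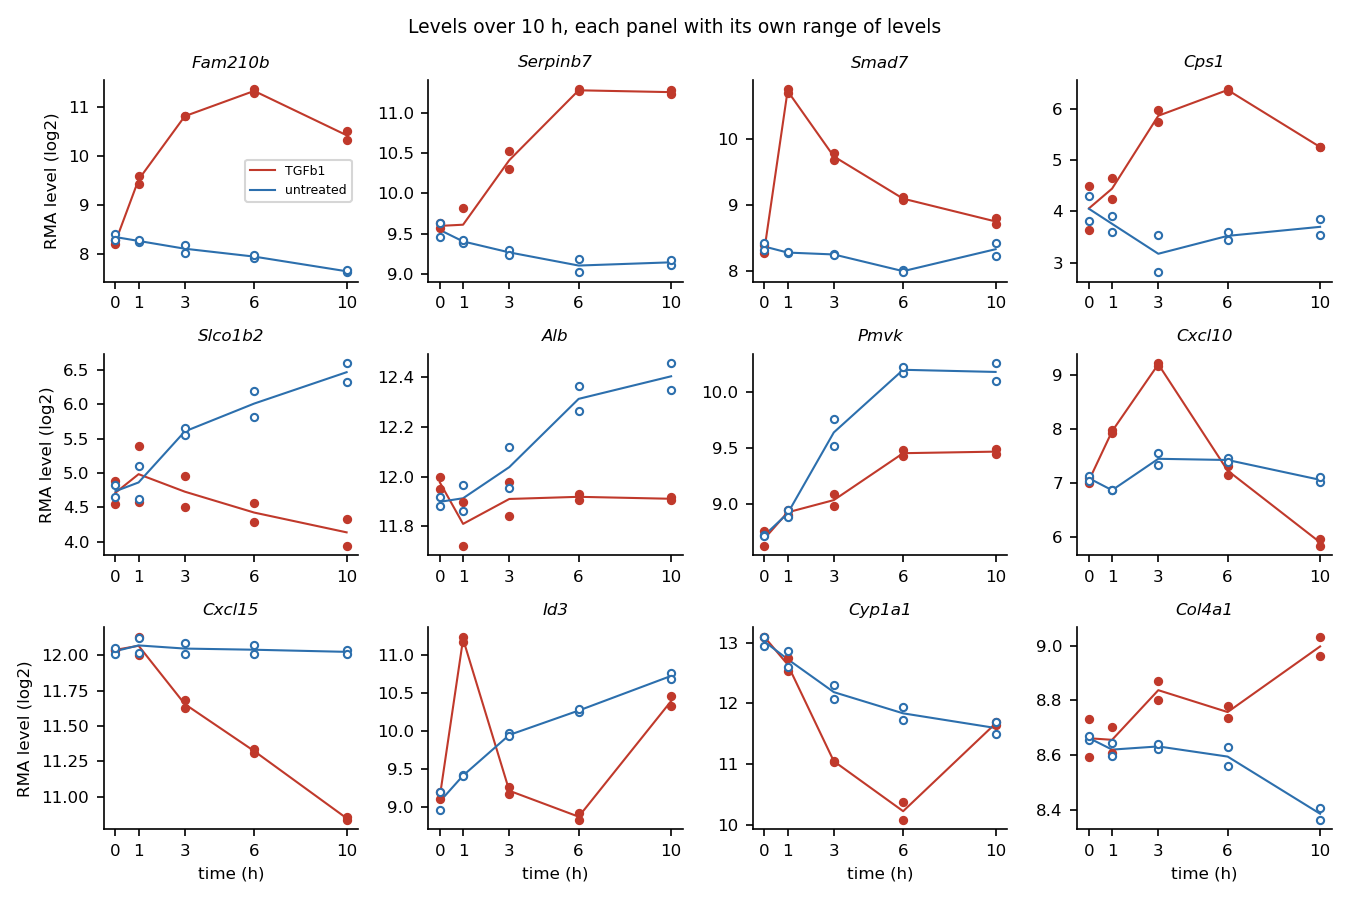
Points are the RMA levels (log2, y axis with its own range in each panel) of the single arrays of 12 genes over 0 to 10 h (x axis), filled for TGFβ1 and open for untreated cultures, with lines through the group means. Slco1b2, Alb and Pmvk separate while the untreated level climbs, Cxcl10 crosses from above to below the untreated level between 3 and 10 h, and Cyp1a1 meets it again at 10 h.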

How the data were processed

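RNA of the 20 cultures was hybridised as biotin-labelled cRNA to Affymetrix arrays, 1 sample an array. The deposited values are log2 levels per probe set that the authors made with RMA, per the submitters' processing notes, which corrects background, normalizes quantiles between arrays and summarises probes. Which software version, chip description file and build were used is not given in the sources used here. This method sets all arrays to a like distribution, so each change is relative to the other transcripts, and differences of dim genes are compressed by background. Array medians lay between 5.15 and 5.21, and duplicates correlated at 0.996 to 0.997 across probe sets. The number of arrays, 2 a group, limits the precision, with a median standard error of 0.13 for the 10 h difference.

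Of 45037 probe sets, 34945 named 1 gene, 932 several and 9160 none in the platform annotation. Symbols were updated through gene identifiers to RefSeq, which 162 of the 18193 genes did not match. Group means of all 10 groups were fitted with limma 3.58.1 in R 4.3.3 (lmFit, eBayes with a trend, 10 residual degrees of freedom), Benjamini-Hochberg adjusted over all genes, at a threshold of 0.05. Arrays were grouped by their titles. The fit was tested on simulated data. The labels and files give no batch.

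Members and gene lists (36 pathway and 6 marker lists, 1065 genes measured) were chosen with earlier results of these data known. Genes were named by a rule: the 15 largest rises and falls with non-overlapping arrays, up to 4 members of each list by adjusted p, 19 set genes whatever their test, and the 5 largest changes of the effect from 6 h in each direction. The 16 named genes outside it, Col1a1 and Foxa2 among them, and the markers given with levels were picked after their values were seen. Alternatives were other normalization, filters, probe set choices, fits and arrays left out. Promoter stretches were read from a RefSeq table after those of a whole chromosome were left out, and genes without an entry are not analysed here.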

Additional observations from a re-analysis of the deposited data

Results flagged for a closer look

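For 58 of the genes named in the text, the effect at 10 h differed from that at 6 h in the test of the difference itself. The values are the 10 h effect minus the 6 h effect on the log2 scale. The effect was higher at 10 h in 16 genes. Among them Cyp1a1 changed by 1.69, Angpt1 by 1.67, Hunk by 1.25, Tmem71 by 1.12, Fgfbp1 by 1.11, Id3 by 1.07, Elovl6 by 0.84, Sntb1 by 0.73, Ppp1r3c by 0.65, Ppbp by 0.57, Cp by 0.53, Morc4 by 0.52, Dkc1 by 0.51, Col4a1 by 0.45, Tgfbr2 by 0.34 and Foxa2 by 0.32. The 10 h call of Fgfbp1, a carrier of fibroblast growth factors, was itself lost when any 1 of the 4 arrays was left out (adjusted p = 0.113 to 0.235).

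The effect was lower at 10 h in the other 42. The changes were -1.81 for Chst8, -1.80 for Trbv1, -1.55 for Pstpip1, -1.45 for Lmcd1, -1.44 for Ldlrad4, -1.31 for P2ry14 and -1.20 for Htra1. They were -1.13 for Pdgfb, -1.12 for Oasl2, -1.06 for Bhlhe40, -0.96 for Cxcl10, -0.93 for Junb, -0.87 for Ccn2, -0.84 for Dram1, -0.83 for each of Papss2, Skil and Tnnt2, and -0.80 for Pdlim7. Smaller ones were -0.73 for Pdgfc and Fblim1, -0.72 for Cldn4, -0.68 for Smad7, -0.64 for Plat, -0.60 for Fam210b, -0.59 for Jup, -0.56 for Itgav, -0.52 for Notum and Cdkn2b, and -0.51 for Fst. The rest were -0.48 for Tgfbr1 and Gadd45a, -0.47 for Tgfbi, -0.46 for Klf10 and Cxcl15, -0.44 for Nuak2 and Nqo1, -0.42 for Bmpr2, -0.41 for Thbs1, -0.40 for Igfbp3, -0.32 for Enpep, -0.29 for Cald1 and -0.28 for Srebf1.

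Probe sets that name no gene or several genes were left out of the comparison. Of these 10092, 164 differed at 10 h (93 higher and 71 lower), with 0 at 0 h by the same limma fit over all 45037 probe sets. That is 1.63% of them, against 5.42% of the probe sets with 1 gene. The largest rise was 5.36-fold and the largest fall 2.26-fold.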

How the results depend on the processing

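For the counts at 10 h 13 alternatives were run. The same were run for the named genes and the lists, except that the filter on the median level gave no value for genes below it or for lists without a member above it. Without a variance trend 1099 genes differed at 10 h, 610 higher and 489 lower, against 1662, 923 and 739. Leaving out 1 of the 4 arrays at a time gave 833 to 1112 genes, 463 to 596 higher and 370 to 516 lower, with 1 group then a lone array assumed to vary like the others. Another round of quantile normalization gave 822 higher and 901 lower, so the share of higher genes was 47.7%, against 55.5%. The change of the effect from 6 h, 444 genes with 202 higher and 242 lower, became 287 (134 and 153) with the mean of a gene's probe sets and 240 (91 and 149) without the trend. With 1 array of 10 h or 6 h left out it gave 270 to 358 genes, 104 to 147 higher and 166 to 226 lower. The arrays of 6 h were left out as a choice made after seeing the data.

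Of the 135 genes named in the text that differed at 10 h, 117 kept their call under every alternative run. Of the genes that did not pass, 4 gained a call, Cdkn2b and Hnf4a under 3 alternatives each and Chst8 and Smad4 under 1 each, with the adjusted p given in the report. Another 3 near 0 changed sign: with 1 array left out, Cdkn1a ranged from -0.043 to 0.0072 (without treated replicate 1), Cyp1a1 from 0.17 to -0.023 (without untreated replicate 1) and Tgfb1 from -0.10 to 0.046 (without untreated replicate 1). Of the list counts of 5 or more, those of SMAD targets, YAP/TEAD targets, actin genes, integrins, EMT genes, matrix genes and matrix proteases stayed within 1.5 times of the reported count under every alternative run. For the others the text gives each array whose removal moved them further.

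The replicate numbers of the titles did not pair the samples: deviations of same-numbered arrays correlated at 0.003 at 10 h and between -0.20 and 0.21 over all pairs of groups. With the replicate block, 1788 genes differed at 10 h (1001 higher, 787 lower) and 500 changed their effect from 6 h (232 higher, 268 lower). No named gene changed its call or direction under the block.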

Other observations

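Lysosomal and autophagy genes had 6 of 35 members higher and 3 lower at 10 h, with a median log2 difference of 0.02, and Dram1 far above the rest. The cathepsin Ctsl was 0.26 higher, a call lost with the mean of its probe sets (adjusted p = 0.278). The 6 rises were 2 without treated replicate 2, 3 without untreated replicate 1 and 2 without untreated replicate 2. Of 28 p53 targets, 27 of them brighter than the median gene, 2 rose and 2 fell, close to the 5.07% and 4.06% of all genes. Fas and Gadd45a were the falls. Both rises lost their call under some alternatives. Of 20 circadian clock genes, 2 rose and 2 fell, with Bhlhe40 up and Dbp down as described among the SMAD targets and the liver factors.

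Between 0 and 10 h, untreated cultures differed in 4742 genes (26.1%) and treated cultures in 5099 (28%), counts that share the arrays of the 10 h comparison. Nrep changed by 0.81 in treated and -1.41 in untreated cultures, P2ry14 by -0.07 and -1.88, and Htra1 by -0.08 and -1.53. Fer1l6 changed by -0.01 and 1.44, Stc1 by 0.09 and 1.18, and Fgb by 0.17 and 1.34. In these 6 genes, chosen after their values were seen, the treated level at 10 h lay nearer to its own 0 h level than the untreated one did.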
